A study of Mus musculus with 2 samples.

Results

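The X-linked cluster that runs from Mir322 to Mir450b is a group of 7 microRNA (miRNA) genes that lie within 6353 bases of the mouse X chromosome. The rows of Mir322, Mir503, Mir351, Mir542, Mir450-2, Mir450-1 and Mir450b were taken by gene symbol from the 1973 miRNA genes counted in this series. All 7 rows were found, and all 7 had at least 10 counts in both libraries, as did 352 of the 1973 genes. The genes were chosen by name, but with their counts and pup ratios in these libraries already known. Their levels and the differences between the libraries are therefore given as a description, with no test.

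The series held 1 group of 2 small RNA libraries from newborn B6NCrl mice (postnatal day 0, neural tube), with RNA shorter than 30 bases per the labels. Each library came from a single neural tube, that of pup 1 or that of pup 2, born to the same dam. The labels name no treatment and no transgene, and pup sex was not collected. Totals were 3216453 own-strand counts in pup 1 and 3660693 in pup 2, so that 1 count equalled 0.311 and 0.273 CPM (counts scaled to 1000000 own-strand counts of a library). Reads that fitted several places in the genome, 35.7% and 35.4% of all reads, were counted to no gene.

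A miRNA is cut from a hairpin precursor, and the seed, bases 2 to 8 of the mature strand, does most of the pairing with target messenger RNAs. Genes of one cluster can be carried on the same primary transcript, from which each hairpin is then cut separately. Mir322, the mouse counterpart of human MIR424, and Mir503 are known for slowing the cell cycle in cultured cells by repressing cyclins and cell cycle phosphatases, and they rise when myoblasts leave the cycle and become muscle. The libraries measured miRNA counts only, so cell cycle exit and target repression were not measured.

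The mature sequences show which members can be grouped and which can be counted apart. They are printed from RefSeq (GRCm38, the build called mm10) from the 5′ to the 3′ end, with the seed in capitals. All 7 genes had a mature entry there. The first set shows miR-322-5p and miR-503-5p beside the miR-15/16 miRNAs, known regulators of the cell cycle whose seed miR-322-5p shares.
miR-322-5p: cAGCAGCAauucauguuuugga
miR-503-5p: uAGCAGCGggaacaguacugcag
miR-15a-5p: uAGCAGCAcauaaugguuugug
miR-16-5p: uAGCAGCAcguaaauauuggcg
miR-195a-5p: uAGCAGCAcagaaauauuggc

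Counting positions from 1 at the 5′ end, miR-503-5p differs from miR-322-5p within the first 8 bases at C1U and A8G. It therefore shares bases 2 to 7 with the miR-15/16 miRNAs but not base 8. The second set shows miR-351-5p beside the miR-125 miRNAs, which are mammalian relatives of worm lin-4, a regulator of developmental timing.
miR-351-5p: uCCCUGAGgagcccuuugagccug
miR-125a-5p: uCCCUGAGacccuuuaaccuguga
miR-125b-5p: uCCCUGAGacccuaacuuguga

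The first 8 bases of these 3 miRNAs were the same. Counted from base 1, miR-351-5p differed from miR-125a-5p at 14 of the 24 positions compared and from miR-125b-5p at 12 of 22. Every difference lay beyond base 8. The third set shows the miRNAs from the downstream end of the cluster, where the copies of miR-450 lie.
miR-542-5p: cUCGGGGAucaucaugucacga
miR-542-3p: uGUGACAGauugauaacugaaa
miR-450a-5p: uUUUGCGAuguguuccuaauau
miR-450b-5p: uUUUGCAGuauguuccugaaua
miR-450a-1-3p: aUUGGGAAcauuuugcauaaau
miR-450b-3p: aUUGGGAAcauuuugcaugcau
miR-450a-2-3p: aUUGGGGAugcuuugcauucau

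miR-450a-5p is the same in Mir450-1 and Mir450-2, and its 22 bases were found in both precursors and in no other annotated miRNA precursor. A read that covers no more than these bases fits both genes, so it falls among the uncounted reads. The seed of miR-450b-5p differs from that of miR-450a-5p at G7A and A8G. On the other arm, miR-450a-1-3p and miR-450b-3p were identical over their first 18 bases and differed at A19G and A20C. Every other mature sequence of a member was found in a single precursor, and the counts do not tell the arms of a precursor apart.

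All 7 genes lie on the minus strand of chromosome X in the GENCODE annotation (release M21, mm10), in the order Mir322, Mir503, Mir351, Mir542, Mir450-2, Mir450-1, Mir450b. Mir322 (ENSMUSG00000065418.1) spans positions 53054255 to 53054349, and Mir450b (ENSMUSG00000076050.1), at the other end, 53047997 to 53048078. Mir503 starts 295 bases and Mir351 996 bases downstream of the start of Mir322. Mir542 follows after a gap of 3767 bases. The miR-450 genes are packed together, with 54 bases between Mir450-2 and Mir450-1 and 75 bases between Mir450-1 and Mir450b. No other annotated gene overlapped a member, so none is exonic or intronic in that annotation. The long noncoding RNA gene Gm28730 starts 95 bases downstream of Mir351 on the same strand, and the noncoding gene C430049B03Rik ends 696 bases upstream of Mir322.

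Together the 7 genes held 27562 counts in pup 1 and 40680 in pup 2. This was 0.857% of the own-strand counts in pup 1 (exact 95% binomial interval 0.847 to 0.867%) and 1.11% in pup 2 (1.10 to 1.12%), or 0.984% ± 0.180 (SD, n = 2). Pup 2 thus had the larger share. Intervals here cover counting error only, because each pup gave a single library, so differences between animals or preparations are not in them. The labels name no molecular identifiers that would tell copied reads from separate molecules. The intervals may therefore be too narrow even for counting error.

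Mir322 was the most abundant member, with 24228 counts (7533 CPM) in pup 1 and 34400 counts (9397 CPM) in pup 2. Its mean of 8465 CPM ± 1318 (SD, n = 2) placed it at rank 20 of the 1973 genes. It held 87.9% of the cluster's counts in pup 1 (exact 95% binomial interval 87.5 to 88.3%) and 84.6% in pup 2 (84.2 to 84.9%). The detected genes outside the cluster with the most similar values, by distance in log2(CPM + 1) over both libraries, were Mir30a, Mir23b and Mir99b, at distances of 0.09, 0.15 and 0.23. This likeness rests on 2 libraries and is mostly likeness of level.

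Mir503, whose hairpin lies 200 bases beyond that of Mir322, was far lower. It had 403 counts (125 CPM) in pup 1 and 624 counts (170.5 CPM) in pup 2, a mean of 148 CPM ± 31.9 (SD, n = 2) at rank 192. Mir322 had 60.1 times its counts in pup 1 and 55.1 times in pup 2. These 2 genes, the closest neighbours outside the miR-450 group and the usual pair in work on cell cycle arrest, thus stood furthest apart among adjacent members.

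Mir351 was the second most abundant member. It has been described as promoting the growth of muscle progenitors, in contrast to Mir322 and Mir503. It had 2203 counts (685 CPM) in pup 1 and 4464 counts (1219 CPM) in pup 2, a mean of 952 CPM ± 378 (SD, n = 2) at rank 98. Its level lay above that of Mir503, which precedes it, in both pups. Genes of most similar values were Mir425, Mir219a-2 and Mir138-2, at distances of 0.31, 0.35 and 0.37. These distances were larger than those of the genes around Mir322, and each of these genes differed less between the pups than Mir351, with log2 ratios of 0.40, 0.34 and 0.56.

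Mir542, whose 3p strand is known for repressing survivin (Birc5), an inhibitor of cell death needed in mitosis, had 554 counts (172 CPM) in pup 1 and 900 counts (246 CPM) in pup 2. The mean was 209 CPM ± 52.1 (SD, n = 2), at rank 173. Its lower value of 172.2 CPM barely cleared the higher value of Mir503, 170.5 CPM. Within each pup Mir542 was the higher of the 2, by 1.37-fold in pup 1 and 1.44-fold in pup 2.

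The miR-450 genes closed the order. Mir450b had 140 counts (43.5 CPM) in pup 1 and 249 counts (68.0 CPM) in pup 2, a mean of 55.8 CPM ± 17.3 (SD, n = 2). Mir450-1 had 21 and 18 counts (6.53 and 4.92 CPM), and Mir450-2 had 13 and 25 counts (4.04 and 6.83 CPM). Mir450-1 was the higher of these last 2 in pup 1 and the lower in pup 2, so their ranges overlapped and their order is not resolved. In the other 5 pairs of neighbours in the order of levels, the lower value of the higher gene exceeded the higher value of the lower gene. Because reads of miR-450a-5p that fit both precursors were not counted, the values of Mir450-1 and Mir450-2 are not levels of miR-450a. Mir450b shares no stretch of 22 bases with another annotated miRNA precursor, and neither do Mir322, Mir503, Mir351 and Mir542.

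**Figure D1:**
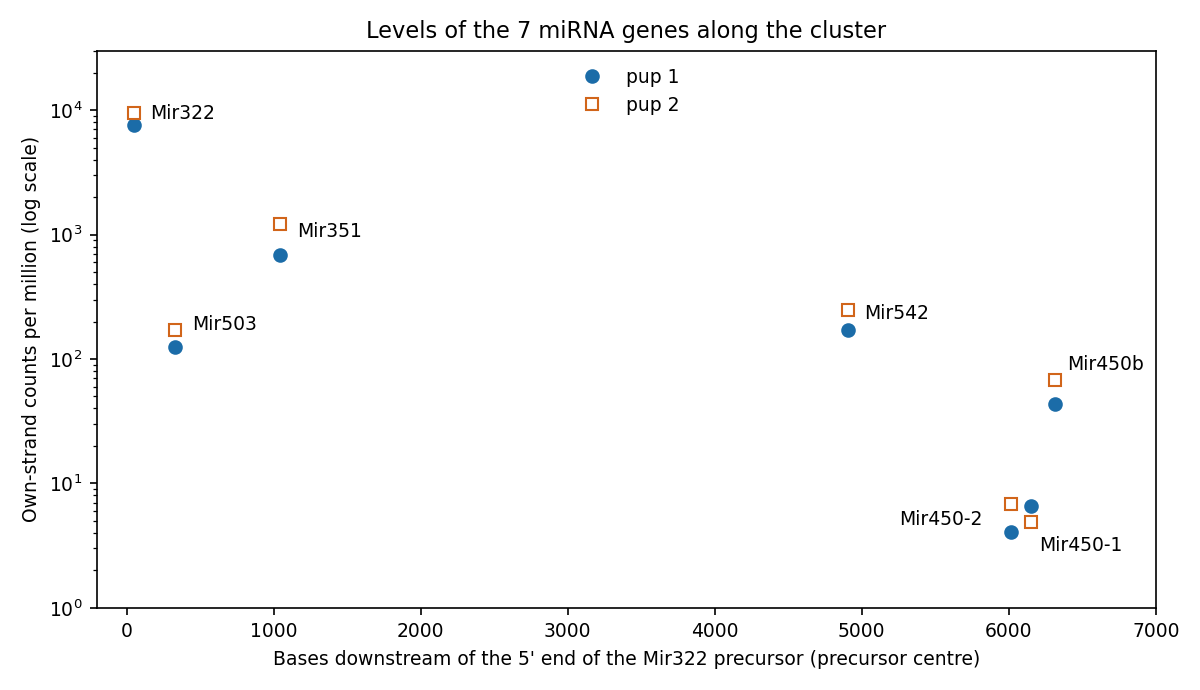
Own-strand CPM (log axis) of the 7 genes against the distance of each precursor's centre from the 5′ end of Mir322, in bases, with filled circles for pup 1 and open squares for pup 2. The levels do not fall step by step along the cluster, since Mir503 at 148 CPM lies between Mir322 at 8465 CPM and Mir351 at 952 CPM. The points of Mir450-1 and Mir450-2 lack reads that fit both genes and are not levels of miR-450a.

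Mir450-1 and Mir450-2 were left out of the reading along the cluster, because their counts lack the shared reads of miR-450a-5p. Over the other 5 genes, from Mir322 to Mir450b, the level in both pups fell from Mir322 to Mir503, rose to Mir351, and fell to Mir542 and again to Mir450b. The highest level thus belonged to the first of these genes and the lowest to the last, with Mir503 as the exception to a steady fall. Levels of different miRNA genes also carry differences in how well each RNA is captured and sequenced, which both libraries share and which these counts do not measure.

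Of the 7 members, 6 had a higher CPM in pup 2 than in pup 1, while Mir450-1, with 21 and 18 counts, had a lower one. The log2 ratio of pup 2 over pup 1 (0.5 added to each count) was 0.32 for Mir322, 0.44 for Mir503, 0.51 for Mir542 and 0.83 for Mir351. It was 0.64 for Mir450b, 0.73 for Mir450-2 and -0.40 for Mir450-1. The members' median was 0.51, while the median of all 352 detected genes was 0.04 and their middle range ran from -0.13 to 0.24 (lower to upper quartile). A positive ratio was found for 203 of these genes (57.7%). With 1 library per pup, the ratios describe these libraries, and no test of the pups was made.

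At the 1.5-fold limit 3 members, Mir351, Mir450b and Mir450-2, were called, each at least 1.5-fold higher in pup 2, and none was at least 1.5-fold lower. Among all 352 detected genes the same limits were passed by 8.24% (29 genes) upwards and by 3.69% (13 genes) downwards. With TMM or DESeq2 scaling the same 3 members passed, against 6.82% of genes. With a minimum of 50 counts 2 of 5 members passed, Mir351 and Mir450b, against 4.66% of genes, and with a minimum of 1 count the same 3, against 14.6%. No member reached 2-fold, which 1.99% of detected genes did. The call of Mir450-2 rests on 13 and 25 counts, and its 95% counting interval of the log2 ratio ran from -0.27 to 1.85. For Mir450b the interval was 0.34 to 0.95, for Mir351 0.76 to 0.91, for Mir542 0.36 to 0.67, for Mir503 0.26 to 0.63 and for Mir322 0.30 to 0.34. The intervals of these 5 better counted genes lay above 0, and that of Mir351 alone among all 7 members lay wholly above the 1.5-fold limit. By ratio, Mir351 stood at place 13 and Mir322 at place 66 of the 352 detected genes. Among the 145 genes that reached 1000 counts in each pup, they stood at places 2 and 21.

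In these libraries Mir351, the member with the highest ratio, differed between the pups by a larger factor than Mir322. Each pup gave 1 library, and the counting intervals may be too narrow, because copied reads cannot be told from separate molecules. Per 100 counts of Mir322 in the same library, a measure that does not depend on the library total, Mir351 had 9.09 counts in pup 1 (95% counting interval 8.70 to 9.50) and 13.0 in pup 2 (12.6 to 13.4), and the intervals did not overlap. Mir503 had 1.66 (1.504 to 1.836) and 1.81 (1.673 to 1.963), and Mir542 had 2.29 (2.10 to 2.49) and 2.62 (2.45 to 2.80), with overlapping intervals in each case. Mir450b, at 0.578 and 0.724, also overlapped, as did Mir450-2 and Mir450-1. Overlap of these intervals does not show that a gene differed by the same factor as Mir322. The counting interval of the log2 ratio of Mir542, 0.36 to 0.67, lay above that of Mir322, 0.30 to 0.34. Within the cluster the share of Mir351 was 7.99% in pup 1 and 10.97% in pup 2. Without Mir322, the other 6 genes held 1037 CPM (pup 1) and 1716 CPM (pup 2), a log2 ratio of 0.73, of which Mir351 made up the larger part.

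**Figure D2:**
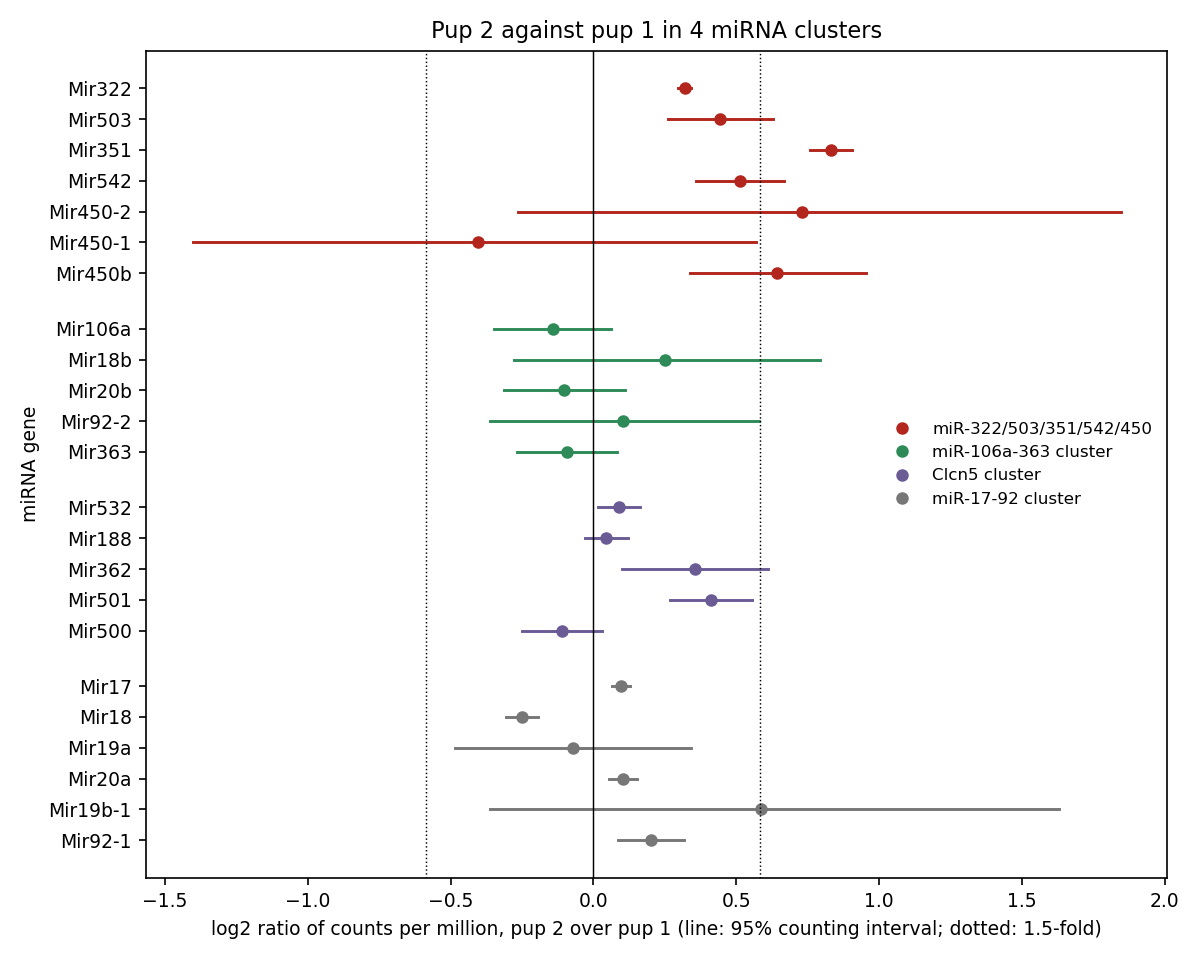
Log2 ratio of CPM of pup 2 over pup 1 for the 7 members and for the detected genes of 3 other miRNA clusters, as points with 95% counting intervals as lines; dotted lines mark 1.5-fold. Mir351 at 0.83 lies to the right of the upper 1.5-fold line with its whole interval. The 5 detected genes of the miR-106a-363 cluster lie between -0.14 and 0.25. Mir362 (0.35) and Mir501 (0.41) of the Clcn5 cluster and Mir19b-1 (0.59) of the miR-17-92 cluster lie to the right of Mir322 (0.32). The other genes of these clusters lie to its left.

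Since the cluster is X-linked and the sex of the pups is not known, the other miRNA genes of chromosome X were set beside it. Of 113 such genes 33 were detected, with a median log2 ratio of 0.09 (lowest -0.78, highest 0.57). None of the 33 was at least 1.5-fold higher in pup 2, against 8.24% of all 352 detected genes. Only 1, Mir504 (50 and 33 counts), was at least 1.5-fold lower, against 3.69% of all detected genes. Mir223 (0.57) and Mir1198 (0.56) came close to the upper limit and lay above Mir322, Mir503 and Mir542. The nearest of these groups, the miR-106a-363 cluster, a relative of the growth-promoting miR-17-92 cluster, lies 305 kilobases away on the same strand. Its 5 detected genes had a median of -0.09. The 5 measured genes of the X-linked Clcn5 cluster had a median of 0.09 (-0.11 to 0.41). The autosomal miR-17-92 cluster had a median of 0.10 over 6 genes, with 1 of them, Mir19b-1 (15 and 26 counts), at least 1.5-fold higher. Ratios as high as those of the members were not limited to this cluster. In the miR-183 cluster of sensory cells, named here after its values were seen, the log2 ratio was 0.49 for Mir183, 0.76 for Mir96 and 0.83 for Mir182. In the miR-302 cluster of pluripotent cells, also named after its values were seen, it was 0.74 for Mir302a, 1.36 for Mir302b, 0.78 for Mir302c and 0.91 for Mir302d, at mean levels of 4.71 CPM (Mir302c) to 27.8 CPM (Mir302d). Whether the pups' sex bears on the members' ratios was not tested.

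**Figure D3:**
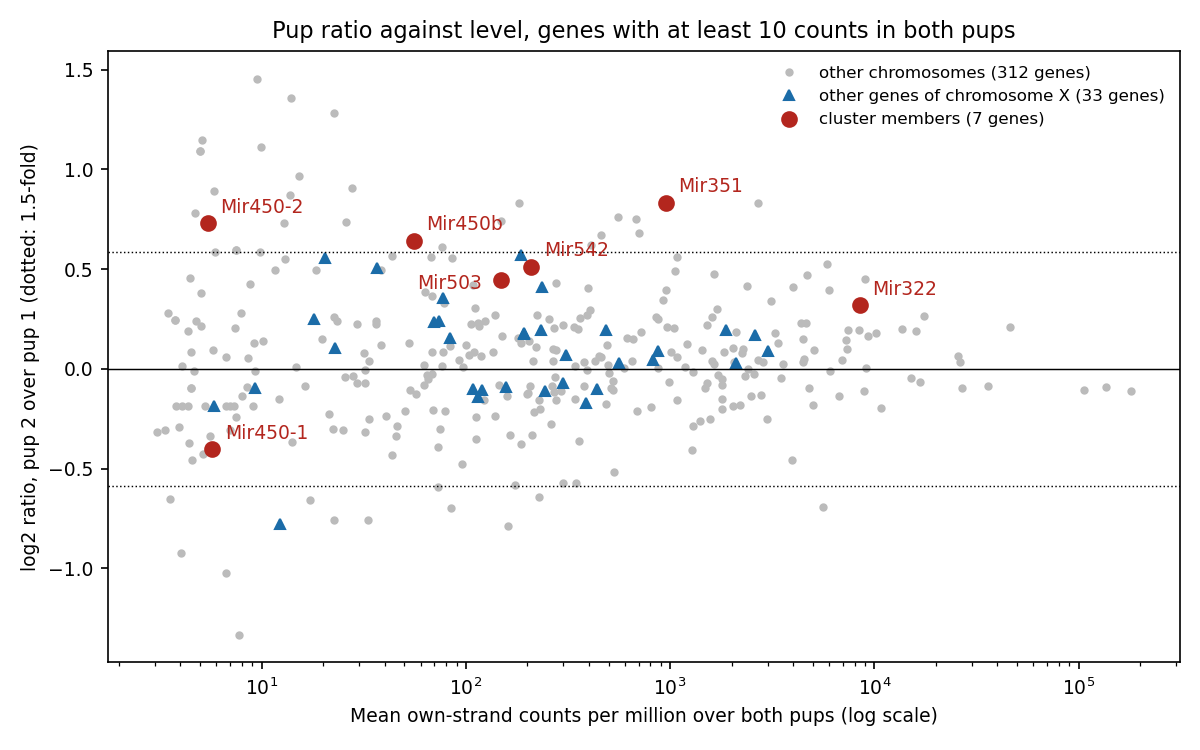
Log2 ratio of pup 2 over pup 1 against mean CPM (log axis) for the 352 genes with at least 10 counts in both pups, with members as red circles, the 33 other genes of chromosome X as blue triangles and genes of other chromosomes in grey; dotted lines mark 1.5-fold. Mir351 (952 CPM, 0.83) lies above the upper 1.5-fold line, which none of the triangles reaches. The highest triangle is Mir223 at 0.57, and Mir504 at -0.78 lies below the lower line. Mir322 (0.32), Mir503 (0.44), Mir542 (0.51) and Mir450-1 (-0.40) do not reach the upper line either.

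The tissue was checked against marker genes of cells that a dissected neural tube may hold. Neuronal Mir137 stood at 15026 CPM (pup 1) and 17125 CPM (pup 2), and Mir153 was detected as well. Of the other 3 genes of the neuron list, Mir124a-1 had only 6.22 and 13.7 CPM. Mir124a-2 (1.24 and 0.82 CPM) and Mir124a-3 (2.18 and 2.73 CPM) did not reach 10 counts in both pups. The mesenchyme list (7 of 8 genes measured) summed to 10738 and 11451 CPM, endothelial Mir126a to 27838 and 26007 CPM, the immune list (2 of 3) to 362 and 423 CPM and the red cell precursor list to 128 and 152 CPM. Muscle markers (5 of 6 measured) summed to 70.6 and 105 CPM, with Mir133a-1, Mir133a-2 and Mir1a-1 at 0 counts in both pups. Those 3 and the Mir124a genes make miRNAs that other gene copies also make, so reads of these miRNAs may be among the uncounted ones.

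Some of these markers moved in the direction of the members, which was also that of 57.7% of all detected genes. At least 1.5-fold higher in pup 2 were 8.24% of all detected genes. Mir214 (1134 and 2054 counts, log2 ratio 0.67) and Mir199a-2 (31 and 65 counts, 0.87) of the mesenchyme list were at least 1.5-fold higher in pup 2, as was Mir124a-1 of the neuron list (20 and 50 counts, 1.11). The other Mir124a genes, which were not detected, had ratios of -0.55 (Mir124a-2, 4 and 3 counts) and 0.30 (Mir124a-3, 7 and 10 counts). Immune Mir223 had a log2 ratio of 0.57 (480 and 813 counts), muscle Mir206 one of 0.55 (223 and 373 counts) and red cell Mir451a one of 0.42 (297 and 452 counts). The other immune and red cell genes measured, Mir150 and Mir144, had ratios of -0.09 and -0.32. The most abundant mesenchyme genes, Mir143 and Mir140, had ratios of 0.04 and 0.13, and Mir199b and Mir145a of the same list 0.08 and -0.12. Neuronal Mir137 had 0.19, neuronal Mir153 0.08 and endothelial Mir126a -0.10. The part of any of these cells in the members' ratios was not tested. In bulk tissue, more cells of a type and more RNA per cell cannot be told apart.

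Genes outside the cluster that make a miRNA with a member's seed were counted to place the members within their seed families. The counts hold both arms of each precursor. Each family share is therefore a share of the counts of these genes, not of reads that carry the seed. Mir322 shares AGCAGCA with 10 other genes in RefSeq, of which 9 were measured and 5 detected: Mir15a, Mir16-1, Mir15b, Mir195a and Mir16-2. The other 4 measured genes, Mir195b, Mir6342, Mir6353 and Mir6419, had 0 counts in both pups. Mir322 held 58.6% of the family's counts in pup 1 (exact 95% binomial interval 58.1 to 59.1%) and 61.0% in pup 2 (60.6 to 61.4%), more than the 5 others together.

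The 5 others summed to 5321 CPM (pup 1) and 6006 CPM (pup 2). Mir15a led them with 2184 and 2310 CPM, followed by Mir16-1 with 1527 and 1881 CPM. Their log2 ratios ran from 0.00 (Mir195a) to 0.40 (Mir16-2), and all 5 were above 0, with Mir16-1 at 0.30 close to the 0.32 of Mir322. None of the 5 passed the 1.5-fold limit in either direction. Mir16-1 and Mir16-2 make the same miR-16-5p, whose 22 bases were found in both precursors, so their counts hold uniquely placed reads only and the family share of Mir322 is a share of such reads. A read that covers no more than those bases, seed included, was not counted. Whether Mir322 would exceed the 5 others with those reads was not measured. Mir497, the remaining member of the family, had no own row among the genes used here.

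Adding Mir503, through bases 2 to 7, moved the family share little. Mir322 and Mir503 together then held 59.0% in pup 1 and 61.4% in pup 2, since Mir503 added 125 and 170.5 CPM to families of 12854 and 15403 CPM.

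Mir351 was a minor part of its seed family in both pups. The genes sharing CCCUGAG were 6, all measured, of which Mir6367 and Mir6394 had 0 counts. Mir351 held 8.81% of the family's counts in pup 1 (exact 95% binomial interval 8.46 to 9.17%) and 14.1% in pup 2 (13.7 to 14.5%). Mir125a held 54.4% and 54.2%, Mir125b-2 24.2% and 19.6%, and Mir125b-1 12.7% and 12.1%. The 3 miR-125 genes summed to 7087 CPM (pup 1) and 7420 CPM (pup 2), with log2 ratios of 0.15 (Mir125a), 0.08 (Mir125b-1) and -0.15 (Mir125b-2). All 3 lay below the lower bound of the counting interval of Mir351, 0.76, and neither they nor Mir670, a further gene listed with them (191 and 199 counts), passed the 1.5-fold limit in either direction. Both Mir125b genes make the same miR-125b-5p, whose 22 bases were found in both precursors, so that here too only uniquely placed reads were compared. A read that covers no more than these bases, seed included, falls among the uncounted reads. The shares of Mir125b-1 and Mir125b-2 are therefore not shares of miR-125b-5p.

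No gene outside the cluster shared the 7 seed bases of miR-503-5p, miR-542-3p, miR-450a-5p or miR-450b-5p in RefSeq. For these seeds the cluster was the only listed source, at 148 CPM for Mir503, 209 CPM for Mir542 and 55.8 CPM for Mir450b.

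**Figure D4:**
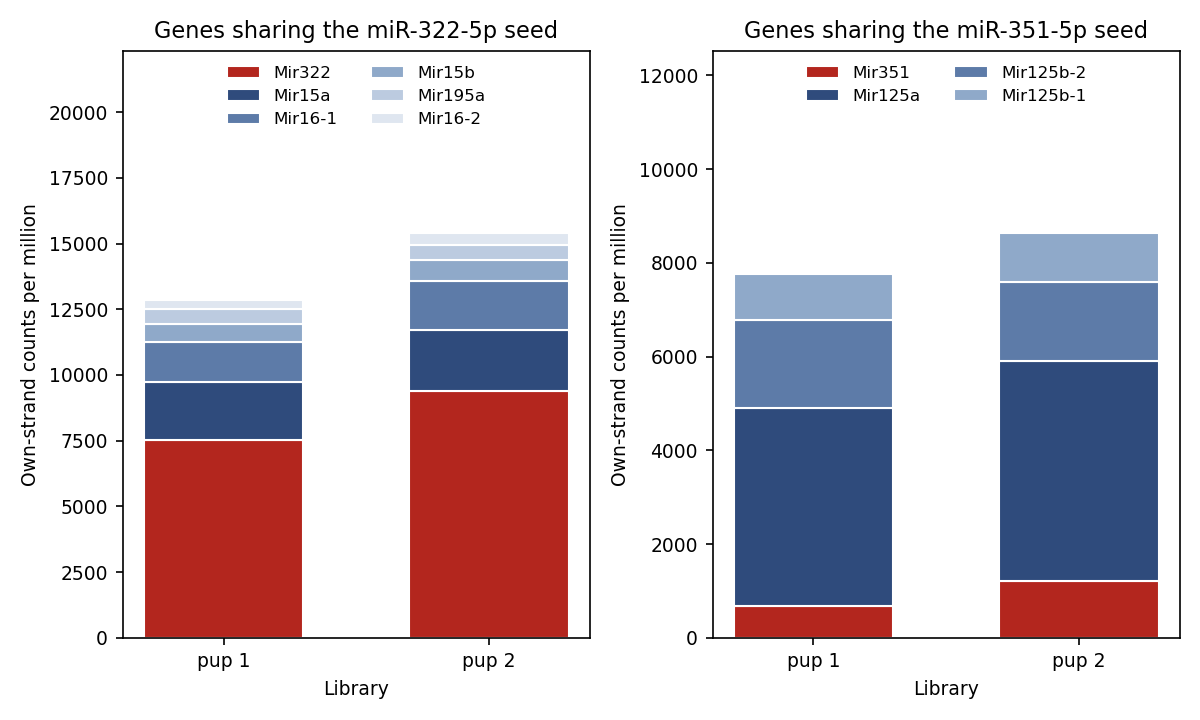
Stacked own-strand CPM, from 0, of the genes with counts that share bases 2 to 8 of miR-322-5p (left) or of miR-351-5p (right), for pup 1 and pup 2, with the cluster member in red at the base. Mir322 makes up 58.6% and 61.0% of its stack, whereas Mir351 makes up 8.81% and 14.1%. The CPM of a gene holds both arms of its precursor, so the stacks are not levels of reads that carry the seed.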

How the data were processed

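For each library the authors deposited a table of raw read counts per miRNA gene, split into either, own and opposite strand. The accompanying deposited text names mm10 as genome and GENCODE M4 as annotation. The aligner and counter were not given in the sources used here. Own-strand counts were used. Rows that name no gene stayed out of all totals: reads that were unmapped or fitted several places made up 46.5% and 46.4% of the reads of pup 1 and pup 2.

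Symbols and positions came from GENCODE M21 on the same build, which matched 1894 of 1973 identifiers, among them all members. Each count had 0.5 added before log2 ratios were taken. Detected genes had 10 or more counts in both pups. Ratio intervals came from exact 95% binomial intervals. Stretches of 22 bases were searched on both strands of 2201 annotated precursors. The labels' replicate numbers are the pups; with littermates, the SD measures the spread between these libraries.

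The members, gene lists and tests were chosen with earlier results of these data known. Named genes were the 7 members, listed genes on which a result turns, and the 3 genes nearest in level to Mir322 and to Mir351. Seed family genes were found from RefSeq. Alternatives tried were TMM or DESeq2 scaling, other count minimums, 1 added to each count, either-strand counts, other totals, other seed or stretch lengths and leaving out a pup. The ratio calculation was tested on simulated data. Scaling factors came from edgeR 4.0.16 and DESeq2 1.42.0 in R 4.3.3. The rest used scipy 1.17.1, numpy 2.4.6, pandas 2.3.3 and matplotlib 3.10.9 in Python 3.11.15.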

Additional observations from a re-analysis of the deposited data

Results flagged for a closer look

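Opposite-strand counts, which enter no level in the report, were 0 at all 7 members in both pups. Among the miR-15/16 genes set beside Mir322 they stood out at 1, Mir497b, which is not itself in the seed family of Mir322. Mir497b had 3644 opposite-strand counts over both pups (1730 in pup 1 and 1914 in pup 2), far above the 3 counts that a count of 0 allows, against 0 and 2 own-strand counts. GENCODE M21 places Mir497 on the other strand of the same 84 bases, and Mir497, which is in that seed family, had no row of its own among the genes analysed here. Had the opposite-strand counts been added to the family, they would have stood at 538 CPM and 523 CPM.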

How the results depend on the processing

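No log2 ratio of a member changed sign under any alternative. Under alternatives, 19 values of main results stayed within the spread or within 1.5 times the count, and 4 did not. The cluster's share was 1.20% without Mir10b, the most abundant gene, in the total and 0.499% of all reads, both by construction of the total. No member passed a limit of 2-fold (0 of 7, where 1.99% of all detected genes did). The family share of Mir322 was 57.6% with the opposite-strand counts at Mir497b added, an alternative chosen after the data were seen. TMM and DESeq2 scaling each left 3 members at least 1.5-fold higher (6.82% of detected genes) and moved all log2 ratios by -0.04, to 0.28 for Mir322, which took it outside its narrow counting interval. With a minimum of 50 counts, Mir450-1 and Mir450-2 dropped out, and 2 of 5 members were at least 1.5-fold higher (4.66% of genes). With stretches of 18 bases, Mir450b joined Mir450-1 and Mir450-2, making 3 members that share one. Of the values of single members, 78 stayed within the spread or interval and 6 did not. With 2 libraries, leaving out 1 moves a mean by less than its SD, so those values are no sign of stability; the cluster's share then ran from 0.857 to 1.11% and the family share of Mir351 from 8.81 to 14.1%. No paired analysis was possible because the series has 1 group. Counts were lowest for Mir450-1 and Mir450-2, at 13 to 25 a pup, and these lack the reads of miR-450a-5p that fit both genes.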
